A study of Mus musculus with 8 samples.

Results

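Small leucine-rich proteoglycans (SLRPs) are secreted matrix proteins that bind collagen fibrils and set fibril width and spacing. The 9 genes described here are Dcn, Bgn, Aspn, Lum, Fmod, Prelp, Omd, Ogn and Podn. They were chosen by name from the 54532 genes of the deposited table, and all 9 were found there once. They were measured by RNA sequencing of heart fibroblasts sorted for PDGFRα, a growth factor receptor on fibroblasts, taken 7 days after coronary occlusion. The label of 4 libraries is FTbR2KO, in which fibroblasts are meant to lack TbR2, the type 2 receptor for TGF-β (gene Tgfbr2). The other 4 are labelled TbR2fl/fl and carry the floxed gene. Both groups had received tamoxifen, the cells were not cultured, and the sources used here give neither the driver of the deletion nor the strain, age or sex of the mice. No label ties a library to an animal of its own, and p-values therefore measure the spread between libraries only, which may be technical.

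SLRP core proteins share a run of leucine-rich repeats and are sorted into classes by sequence and gene structure. Several carry chondroitin, dermatan or keratan sulfate chains, and decorin, biglycan, asporin, lumican and fibromodulin bind type I collagen. Decorin, biglycan, fibromodulin and asporin also bind TGF-β, the ligand of the targeted receptor, and soluble biglycan can signal through Toll-like receptors. In the injured heart SLRPs are products of activated fibroblasts and become part of the scar.

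Values are the authors' FPKM, read counts divided by gene length and by a scaling total for each library. The length counted was 5838 bases for Dcn and 6099 for Bgn, whose principal transcripts in GENCODE vM21 have 1758 and 2419 bases. Lum had 2448 bases for both. Levels, ratios and ranks between genes therefore depend on the length used. Libraries keep the numbers of their titles, 1 to 4 for FTbR2KO and 5 to 8 for TbR2fl/fl. The reads behind the FPKM numbered 16.1 to 22.9 M per library labelled FTbR2KO and 21.2 to 28.7 M per TbR2fl/fl library. The scaling total was not simply this number. It was 17.4 M for both FTbR2KO 1 and FTbR2KO 2, which had 16.1 and 17.7 M reads. Tgfbr2 itself measured 58.2 ± 1.30 FPKM in the libraries labelled FTbR2KO and 45.5 ± 3.86 FPKM in TbR2fl/fl libraries (SD, n = 4 each). It was higher in 4 of 4, a direction that goes against the label. The difference did not pass the test across all genes described below (limma adjusted p = 0.571). Of all tested genes, 4.41% separated the groups completely in either direction. A value for the whole gene does not show whether one exon was removed, and every direction below refers to the libraries as labelled. The sorted cells carried fibroblast transcripts, with the 8 fibroblast markers summing to 8241 to 9962 FPKM in libraries labelled FTbR2KO and 9189 to 13241 FPKM in TbR2fl/fl libraries. Col1a1, Col1a2 and Gsn made up most of that fibroblast sum, and Gsn alone reached 5361 FPKM in TbR2fl/fl 7. Of the 8 markers 5 had log2 fold changes below 0 and 3 above, among the latter Pdgfra at 0.20 (SE 0.18) and Ddr2 at 0.44 (SE 0.15). Markers of leukocytes, endothelium, cardiomyocytes and adipocytes were low, whereas the 6 mural cell markers summed to 155 to 192 FPKM in libraries labelled FTbR2KO and 152 to 187 FPKM in TbR2fl/fl libraries. Pdgfrb, with a mean of 114 FPKM over the 8 libraries, made up most of that mural sum. Rgs5 and Notch3 averaged 21.8 and 24.8 FPKM, and Kcnj8, Abcc9 and Cspg4 only 2.67, 4.0 and 4.19 FPKM. The 7 macrophage and leukocyte markers summed to 6.55 to 10 FPKM in libraries labelled FTbR2KO and 7.55 to 9.99 FPKM in TbR2fl/fl libraries. The 5 endothelial markers summed to 1.17 to 2.56 FPKM in libraries labelled FTbR2KO and 1.58 to 2.95 FPKM in TbR2fl/fl libraries. The 6 cardiomyocyte markers reached 2.08 to 4.51 FPKM in libraries labelled FTbR2KO and 3.32 to 4.17 FPKM in TbR2fl/fl libraries, and the 4 adipocyte markers 0.123 to 0.302 FPKM in libraries labelled FTbR2KO and 0.0254 to 0.128 FPKM in TbR2fl/fl libraries, Lep having no read in any library. In sorted bulk RNA, fewer cells of a type and less RNA per cell cannot be told apart. FTbR2KO 1 and TbR2fl/fl 5 stood apart from the other libraries on the first principal component, with scores of -24.4 and -20.9 against -0.1 to 19.0, so the fold changes are also given without both.

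SLRPs were among the most abundant transcripts of these fibroblasts. Together the 9 genes held 2.04 to 2.30% of all reads of libraries labelled FTbR2KO and 1.94 to 2.18% in TbR2fl/fl libraries. Their summed level was 4647 ± 276 FPKM in libraries labelled FTbR2KO and 4396 ± 461 FPKM in TbR2fl/fl libraries (SD, n = 4 each), and the ranges overlapped. Bgn, which encodes biglycan, ranked 9th by mean FPKM among the 10620 tested protein-coding genes. Dcn (decorin) ranked 23rd, Lum (lumican) 32nd, Aspn (asporin) 63rd and Ogn (osteoglycin, also called mimecan) 66th. Prelp, which encodes a proline- and arginine-rich SLRP that binds heparan sulfate, ranked 193rd, and Fmod (fibromodulin) 267th. Podn (podocan) ranked 1570th and Omd (osteomodulin, a protein of mineralised tissue) 4807th.

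The order of the means over all 8 libraries was Bgn at 1782 FPKM, Dcn at 824, Lum at 707, Aspn at 441, Ogn at 437, Prelp at 175, Fmod at 125, Podn at 23.1 and Omd at 6.87 FPKM. Most steps of this order held in 8 of 8 libraries. Bgn exceeded Dcn by 1.52- to 3.03-fold within a library, Lum exceeded Aspn by 1.31- to 2.29-fold, and Ogn exceeded Prelp by 1.71- to 3.29-fold, in each case with no overlap of the genes' ranges. Dcn lay above Lum in every library, but by only 1.04- to 1.28-fold, a ratio that rests on counted lengths of 5838 and 2448 bases. Aspn and Ogn did not differ beyond their spread, with Aspn the higher in 5 of 8 libraries and a mean log2 ratio of 0.02 ± 0.17 (SD, n = 8). Prelp exceeded Fmod by 1.2- to 1.77-fold, Fmod exceeded Podn by 4.62- to 6.43-fold and Podn exceeded Omd by 2.40- to 5.23-fold.

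Of the 9 genes, 7 lie in clusters with other members of the family on GRCm38. Dcn lies on chromosome 10 from 97479609 to 97518143 on the plus strand, followed after 47.0 kb by Lum (97565128 to 97572703, plus strand). Kera (keratocan) and Epyc (epiphycan), 2 further SLRP genes known from cornea and cartilage, come next in that cluster and had mean levels of 0.105 and 3.28 FPKM. On chromosome 13 Ecm2, Aspn (49544443 to 49567565), Omd (49582462 to 49592822) and Ogn (49608046 to 49624501) follow one another on the plus strand within 120.0 kb. Prelp (133910304 to 133921414, minus strand) and Fmod (134037254 to 134048277, plus strand) lie on chromosome 1, beside Optc (opticin, an eye SLRP), which measured 0.289 FPKM. Bgn lies on the X chromosome from 73483602 to 73495933 on the plus strand, and Podn on chromosome 4 from 108014791 to 108096445 on the minus strand. Some neighbours were alike in FPKM, such as Dcn and Lum, and others differed widely. Dcn and Lum had 862113 and 312972 reads over counted lengths of 5838 and 2448 bases. Omd measured 4.50 to 10.2 FPKM over the 8 libraries although it lies 14.9 kb from Aspn and 15.2 kb from Ogn, which were 36.5- to 89.3-fold and 44.7- to 85.3-fold higher in the same libraries. Kera had 44 reads in all 8 libraries together, against 312972 for Lum 34.2 kb away.

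**Figure D1:**
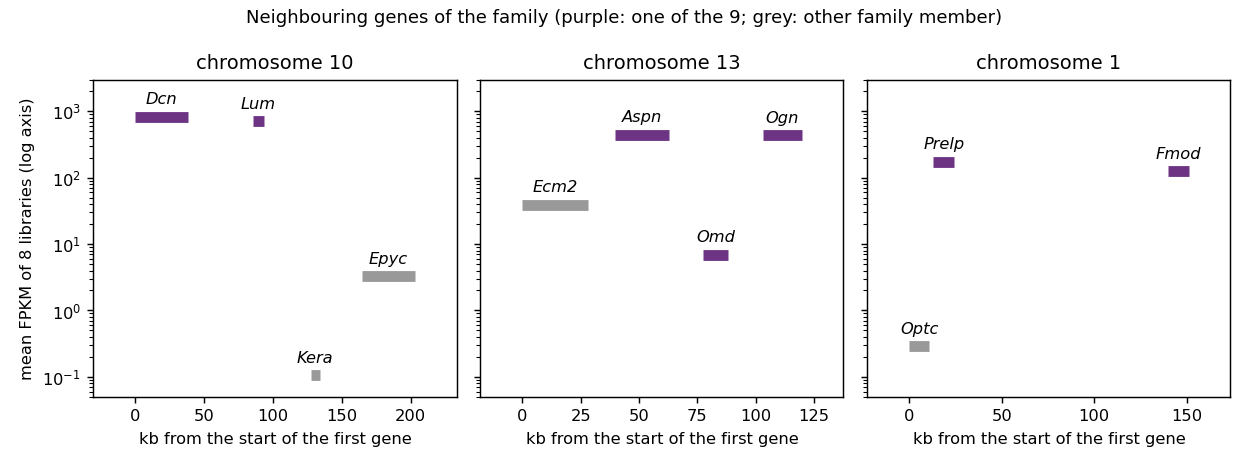
Mean FPKM over the 8 libraries (log axis) of SLRP genes in the chromosome 10, 13 and 1 clusters, against distance in kb from the start of the first gene of each cluster. Each bar spans a gene, purple for the 9 genes described and grey for their relatives. Omd sits at 6.87 FPKM between Aspn at 441 and Ogn at 437 FPKM, and Kera at 0.105 FPKM beside Lum at 707 FPKM.

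The bases before the starts of the 3 chromosome 13 genes are shown because these neighbours, all on one strand, include a scarce transcript between 2 abundant ones. Each line gives the 250 bases before the RefSeq start (GRCm38.p6, plus strand), at chr13:49544193-49544442 for Aspn, chr13:49582212-49582461 for Omd and chr13:49607765-49608014 for Ogn. Capitals mark matches, on either strand, to any of 5 motifs. The TATA box was searched as TATAAA, the motif of TEAD factors as GGAATG, that of Smad proteins as CAGAC, that of AP-1 as TGANTCA and that of Runx factors as ACCACA.
Aspn: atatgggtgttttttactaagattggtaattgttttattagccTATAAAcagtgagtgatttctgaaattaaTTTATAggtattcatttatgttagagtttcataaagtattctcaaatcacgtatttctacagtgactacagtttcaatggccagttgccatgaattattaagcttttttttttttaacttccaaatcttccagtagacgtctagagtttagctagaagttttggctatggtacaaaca
Omd: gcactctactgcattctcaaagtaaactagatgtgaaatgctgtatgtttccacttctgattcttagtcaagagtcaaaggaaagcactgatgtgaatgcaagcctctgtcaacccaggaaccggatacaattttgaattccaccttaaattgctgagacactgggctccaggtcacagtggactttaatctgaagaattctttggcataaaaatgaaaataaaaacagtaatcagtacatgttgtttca
Ogn: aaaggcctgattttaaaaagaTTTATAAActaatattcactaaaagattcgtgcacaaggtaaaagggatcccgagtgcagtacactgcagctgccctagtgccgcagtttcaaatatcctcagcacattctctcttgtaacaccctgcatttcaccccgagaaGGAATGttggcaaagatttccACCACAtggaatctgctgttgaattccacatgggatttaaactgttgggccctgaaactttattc
The window of Aspn held TATAAA at positions -207 and -178, counted from the start. The window of Ogn held it at -229 and -227, as overlapping matches on the 2 strands, with GGAATG at -86 and ACCACA at -65. The window of Omd held none of the 5 motifs. Among the 32851 RefSeq promoter windows of this length, 12.4% held TATAAA, 12.6% the TEAD motif, 42.2% the Smad motif, 6.75% the AP-1 motif and 14% the Runx motif. Of the 9 genes 7 had a promoter entry, Dcn and Lum having none. The window of Bgn had a GC content of 64.4% and none of the motifs, while CAGAC occurred upstream of Fmod and of Prelp. The GC content was 30.0% for Aspn, 38.4% for Omd and 42.0% for Ogn. A match is only a run of letters, and no binding was measured.

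The classes are set partly by gene structure, so the exon counts given here describe the classes and do not test them. In the GENCODE vM21 annotation, whose identifiers and gene ends matched the deposited table for 9 of 9 genes, the class I genes Dcn, Bgn and Aspn each had 8 exons, 7 of them coding, in the principal transcript. The class II genes Lum, Fmod, Prelp and Omd each had 2 coding exons, the class III gene Ogn had 6 and the class V gene Podn 9. Coding lengths were 894 bases for Ogn to 1833 for Podn. The coding part made up 18.2% of the counted length of Dcn and of Bgn and 56.4% for Omd, the rest being untranslated or alternative exons. Podn overlaps Scp2 on the same strand in the table (mean 21.1 FPKM), so its counting is uncertain. Aspn, Omd and Ogn lie opposite Cenpp (mean 1.51 FPKM) and Prelp opposite an antisense gene. Strand use in counting is unknown here.

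The comparison of genotypes asks how loss of TbR2 alters infarct fibroblasts, and no SLRP gene of the 9 passed the test of that difference. By limma on log2(FPKM + 1) across all 11667 tested genes, 0 of 9 had an adjusted p under 0.05 (Benjamini-Hochberg), where 0.0171% of all tested genes did (2 genes, Gpt2 and Prm1, both higher). All 9 genes passed the filter on low values. At an unadjusted p under 0.05 there was 1 of 9, Omd, against 8.61% of all tested genes, and limma's voom on the reads behind the FPKM likewise gave 0 adjusted and 1 unadjusted, this 1 against 8.28% of all tested genes. The count of 2 was 6 without FTbR2KO 4, 1 without FTbR2KO 1, 2 or 3, and 0 without FTbR2KO 1 and TbR2fl/fl 5 together, with none of the 9 genes among them. The groups did not separate completely for any of the 9, against 4.41% of all tested genes. The log2 fold changes ran from -0.11 to 0.45 with a median of 0.07, 7 above 0 and 2 below, beside a median of -0.0045 over all tested genes, of which 48.8% lay above 0. As TPM, 9 of 9 lay above 0, where the median of all tested genes itself moved by 0.15, and with array weights Fmod lay at 0.02. Without FTbR2KO 1 and TbR2fl/fl 5 the log2 fold change was 0.05 for Dcn, 0.07 for Bgn, 0.02 for Aspn, 0.01 for Lum, -0.10 for Fmod, -0.03 for Prelp, 0.26 for Omd, 0.10 for Ogn and -0.07 for Podn. The 95% confidence intervals are not adjusted for the number of genes and hold only for this scaling and these libraries. Apart from Omd, they reached no further than 0.737-fold on the low side (Fmod) and 1.49-fold on the high side (Dcn). The log2 fold change of Dcn itself moved from 0.16 to 0.33 as TPM and to 0.31 without TbR2fl/fl 7.

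**Figure D2:**
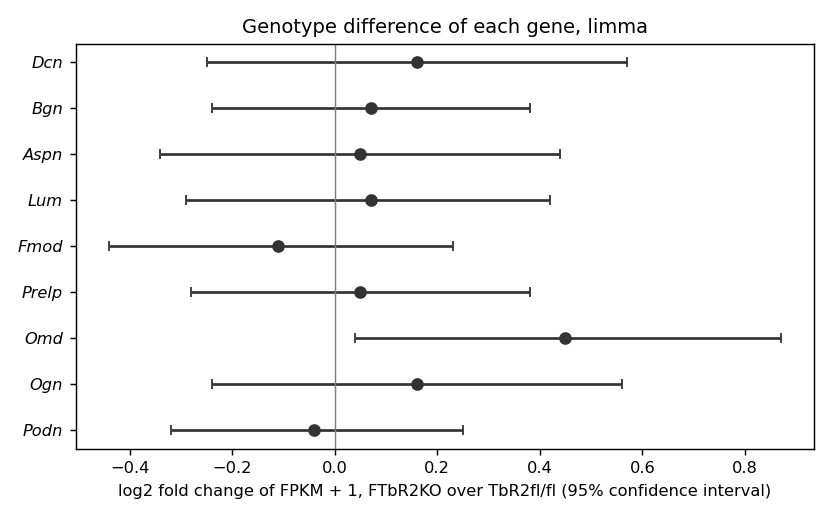
Log2 fold change of FPKM + 1, libraries labelled FTbR2KO over TbR2fl/fl, for each of the 9 genes from limma (points) with unadjusted 95% confidence intervals (lines), n = 4 each. The intervals of 8 genes include 0 and that of Omd runs from 0.04 to 0.87, while no gene had an adjusted p under 0.05.

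Among the class I genes, Dcn encodes the SLRP that carries a single sulfated chain and coats type I collagen fibrils. Dcn measured 1053, 838, 765 and 803 FPKM in FTbR2KO 1 to 4, and 748, 704, 1058 and 628 FPKM in TbR2fl/fl 5 to 8. The groups overlapped because TbR2fl/fl 7 was as high as FTbR2KO 1, while the other controls lay below all 4 libraries labelled FTbR2KO. The log2 fold change was 0.16 (SE 0.18, 95% interval -0.25 to 0.57, limma adjusted p = 0.819, exact permutation p = 0.400). Leaving out TbR2fl/fl 7 raised the log2 fold change of Dcn to 0.31, and leaving out FTbR2KO 1 lowered it to 0.06. Bgn, the closest relative of Dcn, encodes biglycan, whose absence in mice weakens the infarct scar. It measured 1600.1, 2049, 1915 and 1735 FPKM in FTbR2KO 1 to 4, and 1529, 1835, 1692 and 1902 FPKM in TbR2fl/fl 5 to 8. Bgn was the steadiest of the 9, its highest library only 1.34-fold above its lowest, and its means were 1825 ± 197 FPKM in libraries labelled FTbR2KO and 1739 ± 166 FPKM in TbR2fl/fl libraries (SD, n = 4 each; log2 fold change 0.07, SE 0.14, limma adjusted p = 0.909). Bgn is X-linked. Xist, the RNA of the inactive X, was near 0 in FTbR2KO 4 and TbR2fl/fl 8 (0.0561 and 0.0215 FPKM) and measured 30.7 to 49.7 FPKM in the other libraries, and Bgn in those low-Xist libraries lay within the range of the others. Aspn encodes asporin, which has a stretch of aspartate residues and no sulfated chain. It measured 373, 511, 401 and 507 FPKM in FTbR2KO 1 to 4, and 339, 455, 538 and 405 FPKM in TbR2fl/fl 5 to 8, so the highest and the lowest library were both controls. Its log2 fold change was 0.05 (SE 0.17, limma adjusted p = 0.947).

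**Figure D3:**
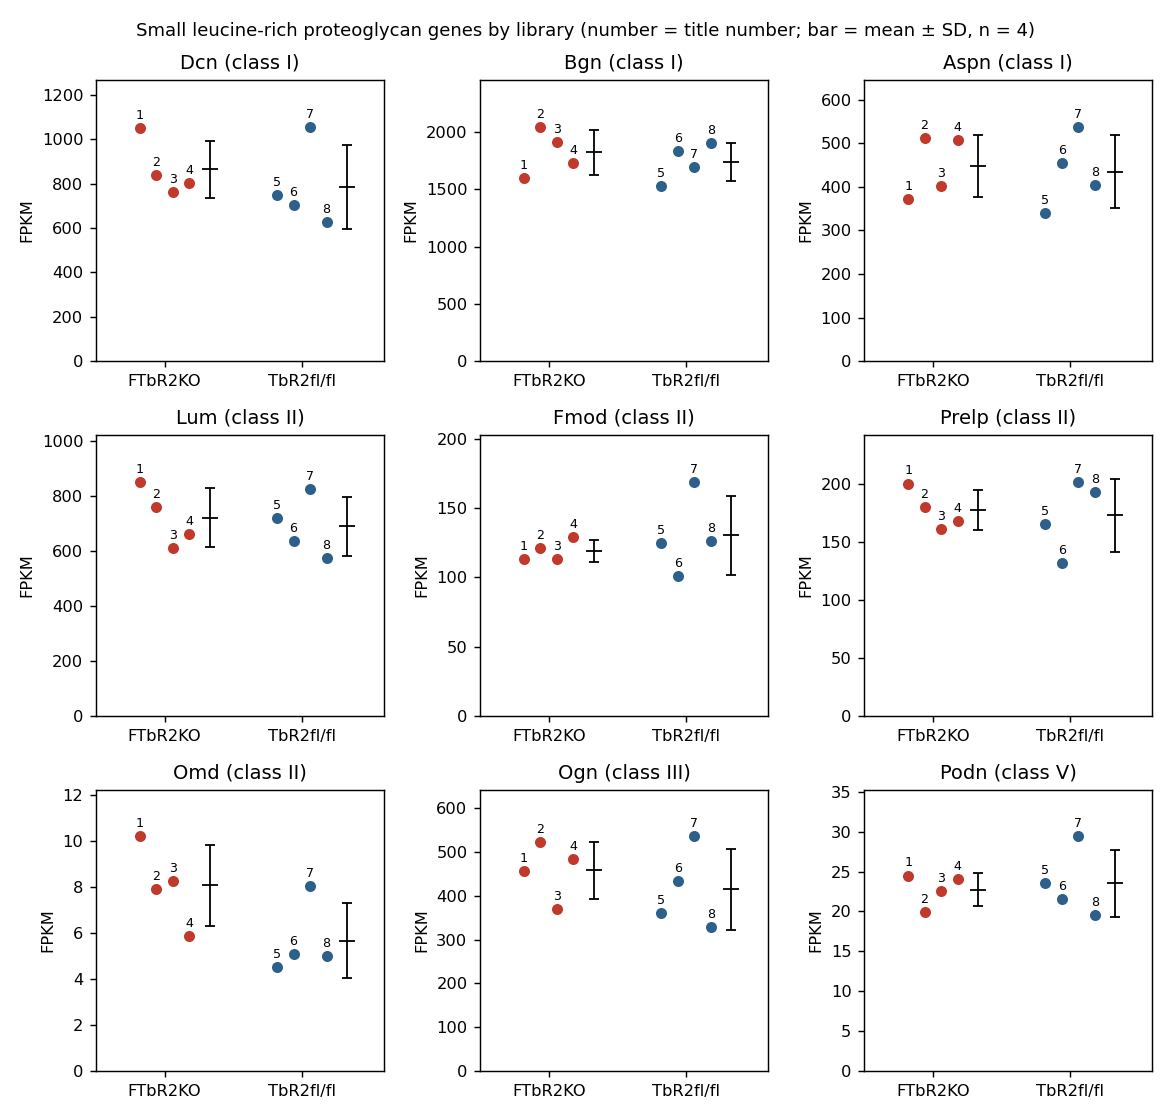
FPKM of each of the 9 genes in each library, axes from 0, libraries labelled FTbR2KO in red on the left and TbR2fl/fl in blue on the right. Points carry the title number and bars give the mean ± SD (n = 4). The groups overlap for all 9 genes, and Omd has the widest gap between means as a ratio, 8.07 against 5.66 FPKM.

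Of the class II genes, Lum encodes lumican, a keratan sulfate SLRP that limits fibril width in the cornea. Lum measured 854, 762, 611 and 664 FPKM in FTbR2KO 1 to 4, and 720.3, 639, 827 and 575 FPKM in TbR2fl/fl 5 to 8. The order of libraries resembled that of Dcn, with FTbR2KO 1 and TbR2fl/fl 7 highest and TbR2fl/fl 8 lowest, and the log2 fold change was 0.07 (SE 0.16, limma adjusted p = 0.924). Fmod encodes fibromodulin, which binds the same region of type I collagen as lumican. It measured 113, 121, 113 and 129 FPKM in FTbR2KO 1 to 4, and 125, 101, 169 and 126 FPKM in TbR2fl/fl 5 to 8. The libraries labelled FTbR2KO lay close together (119 ± 7.64 FPKM, SD, n = 4) inside the wider range of the controls (130.2 ± 28.0 FPKM, n = 4). The log2 fold change of Fmod was -0.11 (SE 0.15, limma adjusted p = 0.855) and it was 0.02 without TbR2fl/fl 7. Prelp measured 200.3, 180.0, 161 and 168 FPKM in FTbR2KO 1 to 4, and 165, 132, 202 and 193 FPKM in TbR2fl/fl 5 to 8. Its means of 177 ± 17.1 FPKM in libraries labelled FTbR2KO and 173 ± 31.6 FPKM in TbR2fl/fl libraries differed by less than the spread in either group (limma adjusted p = 0.939).

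Omd, the scarcest of the 9, had the log2 fold change farthest from 0. It measured 10.2, 7.93, 8.28 and 5.86 FPKM in FTbR2KO 1 to 4, and 4.50, 5.10, 8.06 and 5.00 FPKM in TbR2fl/fl 5 to 8. Every library labelled FTbR2KO lay above 3 of the 4 controls, and TbR2fl/fl 7 reached into their range. The mean was 8.07 ± 1.79 FPKM in libraries labelled FTbR2KO and 5.66 ± 1.62 FPKM in TbR2fl/fl libraries (SD, n = 4 each). The log2 fold change was 0.45 (SE 0.18, 95% interval 0.04 to 0.87), a 1.37-fold difference on the FPKM + 1 scale, with an unadjusted p of 0.0355 and a limma adjusted p of 0.571. The exact two-sided permutation p was 0.0857, and 4 against 4 libraries allow none below 0.0286. Each value of Omd rests on 297 to 399 reads. Leaving out FTbR2KO 1 and TbR2fl/fl 5 together lowered the log2 fold change to 0.26 (limma adjusted p = 0.608). The 5 epicardial and mesothelial markers summed to 31.6, 9.95, 20.6 and 3.84 FPKM in FTbR2KO 1 to 4, and to 19.6, 8.82, 0.641 and 12.6 FPKM in TbR2fl/fl 5 to 8. Among the libraries labelled FTbR2KO this sum ranked as Omd did, whereas among the controls Omd was highest where the sum was lowest. All 5 of these markers had log2 fold changes above 0, where 48.8% of all tested genes did, with a median of 0.43. All 5 were highest in FTbR2KO 1 and lowest in TbR2fl/fl 7, so they are not 5 separate observations. Of these markers 0 passed the adjusted threshold by limma (0 at an unadjusted p under 0.05 by limma or voom). Cnmd (chondromodulin), one of 4 matrifibrocyte markers, measured 10.7, 13.7, 10.5 and 2.87 FPKM in FTbR2KO 1 to 4, and 1.76, 2.07, 2.65 and 0.782 FPKM in TbR2fl/fl 5 to 8 (limma adjusted p = 0.571), so FTbR2KO 4 was the lowest of its group for Cnmd as for Omd. FTbR2KO 4 and TbR2fl/fl 8, the libraries with Xist near 0, were each the lowest of their group for Cnmd. For Omd the lowest control was TbR2fl/fl 5. The log2 fold change was 1.78 (SE 0.39) for Cnmd, but below 0 for the other 3 markers of that list, at -0.22 for Chad, -0.33 for Comp and -0.26 for Cilp2. The summed level of the 4 matrifibrocyte markers was 171 to 210.4 FPKM in libraries labelled FTbR2KO and 181 to 316 FPKM in TbR2fl/fl libraries, mostly Comp. The parts of cell composition and of the sex of the mice in the Omd and Cnmd values were not tested.

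Ogn (class III) and Podn (class V) complete the set. Ogn encodes osteoglycin, a keratan sulfate SLRP of heart and bone matrix. It measured 457, 523, 370.2 and 484 FPKM in FTbR2KO 1 to 4, and 359.9, 435, 536 and 329 FPKM in TbR2fl/fl 5 to 8. The groups overlapped over most of their range, with the highest and the lowest library both controls, and the log2 fold change was 0.16 (SE 0.18, limma adjusted p = 0.813). Podn encodes podocan, which restrains smooth muscle growth in mouse arteries. It measured 24.5, 19.9, 22.5 and 24.0 FPKM in FTbR2KO 1 to 4, and 23.5, 21.6, 29.4 and 19.6 FPKM in TbR2fl/fl 5 to 8. Its log2 fold change was -0.04 (SE 0.13, limma adjusted p = 0.954). The exact permutation p was 0.400 to 0.857 for the genes other than Omd.

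For each of the 9 genes the ratio of the highest to the lowest control library exceeded the ratio of the group means, and the genes did not move as one block. TbR2fl/fl 7 had the highest level of 6 genes (Dcn, Aspn, Fmod, Prelp, Ogn and Podn), whereas TbR2fl/fl 8 had the lowest of 4 and TbR2fl/fl 5 of 3. All 9 lowest values were in controls, as were 6 of the 9 highest. Dcn and Lum were high in FTbR2KO 1 and TbR2fl/fl 7, where Bgn was below its own mean, and the ratio of Bgn to Dcn was 1.52, 2.45, 2.50 and 2.16 in FTbR2KO 1 to 4, and 2.04, 2.61, 1.6 and 3.03 in TbR2fl/fl 5 to 8. Bgn and Aspn were lowest in FTbR2KO 1 and TbR2fl/fl 5. These were also the libraries with the lowest sum of the 5 myofibroblast markers, 1047 FPKM in FTbR2KO 1 and 1162 FPKM in TbR2fl/fl 5 against 1529 to 1782 FPKM in the others. Postn made up most of that sum. The part of the fibroblasts' activation state in these values was not tested.

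**Figure D4:**
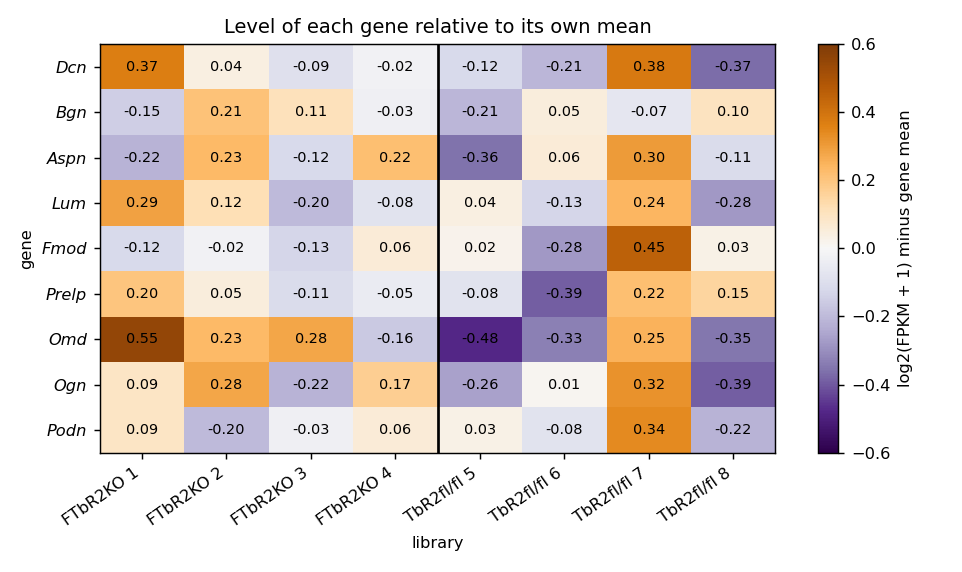
Level of each gene in each library as log2(FPKM + 1) minus the gene's mean over the 8 libraries, with libraries labelled FTbR2KO left of the line and TbR2fl/fl right of it. Orange is above and purple below the mean. Dcn stands at 0.37 in FTbR2KO 1 and 0.38 in TbR2fl/fl 7, where Bgn stands at -0.15 and -0.07.

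Likeness between genes was measured as the root-mean-square (RMS) difference of these centred log2 levels over the 8 libraries, with small values for similar patterns, and is given as a description. Of the 36 pairs of SLRP genes, Dcn and Lum were the closest, with an RMS difference of 0.105 on the log2 scale. Seen from Dcn, Lum was the 12th nearest of the 11666 other tested genes, and seen from Lum, Dcn was the 94th. Aspn and Ogn ranked 3rd among the pairs (0.159) and Fmod and Prelp 5th (0.162). These 3 pairs are chromosomal neighbours, whereas the 2nd and 4th closest pairs, Fmod and Podn (0.157) and Lum and Podn (0.160), lie on different chromosomes. The differences of Omd from its neighbours were 0.305 for Ogn and 0.376 for Aspn, 31st and 35th of the 36. Omd also had the widest spread about its own mean among the SLRP genes described (RMS 0.349), and these ranks depend on that spread. Seen from Omd, Ogn was the 1275th nearest of the 11666 other tested genes (10.9% nearer) and Aspn the 5441st (46.6% nearer). Seen from Ogn, Omd was the 7082nd. Ecm2, which begins the chromosome 13 cluster, was the 5th nearest tested gene to Ogn (0.115), but the 845th to the adjacent Aspn (0.182) and the 1035th to Omd (0.297). All 36 pairs, neighbours or not, share the same libraries and depth. Aspn, Omd and Ogn lie opposite Cenpp (mean 1.51 FPKM), whereas Dcn, Lum and Fmod overlapped no other gene of the deposited table. The cause of the likeness was not tested.

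Outside the family, the nearest protein-coding gene was Thbd for Dcn (RMS difference 0.076), Eif4g2 for Bgn (0.034), mt-Nd4l for Aspn (0.055), Olfml1 for Lum (0.043) and Wnt9a for Fmod (0.077). It was Limch1 for Prelp (0.070), Cebpa for Omd (0.129), Ccrl2 for Ogn (0.086) and Adprm for Podn (0.043), each out of 10394 genes. Among the genes closest to the mean profile of the 9 were Cpq (0.039), Sgce (0.046), Dis3l (0.054) and Tmem39b (0.058). Cebpa, an adipogenic transcription factor gene, measured 16.0, 12.2, 13.0 and 11 FPKM in FTbR2KO 1 to 4, and 9.75, 8.52, 14.3 and 9.17 FPKM in TbR2fl/fl 5 to 8, with TbR2fl/fl 7 high among the controls as for Omd (limma adjusted p = 0.610).

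The collagens to which SLRPs bind were measured in the same libraries. Col1a1 encodes the more abundant type I collagen chain. It measured 3496, 3931, 3799.8 and 4508 FPKM in FTbR2KO 1 to 4, and 5112, 5338, 4682 and 4887 FPKM in TbR2fl/fl 5 to 8. All 4 libraries labelled FTbR2KO lay below all controls (log2 fold change -0.35, SE 0.14, limma adjusted p = 0.571), as they did for Col1a2 (-0.30, SE 0.13, adjusted p = 0.581). The groups separated completely, in either direction, for 4.41% of all tested genes. Of the 14 collagen and microfibril partners, 0 passed the adjusted threshold in either direction by limma or voom (1 and 2 at an unadjusted p under 0.05, against 8.61% and 8.28% of all tested genes), and the median log2 fold change was 0.03. Col3a1 stood at -0.20 (SE 0.15) and Col5a1 at -0.26 (SE 0.14) on the log2 scale. Set against Col1a1, Bgn stood at 45.8, 52.1, 50.4 and 38.5 FPKM per 100 FPKM of Col1a1 in FTbR2KO 1 to 4, and at 29.9, 34.4, 36.1 and 38.9 in TbR2fl/fl 5 to 8. For Bgn 3 of the 4 libraries labelled FTbR2KO lay above every control, and FTbR2KO 4 lay just below the highest control. Dcn stood at 30.1, 21.3, 20.1 and 17.8 per 100 FPKM of Col1a1 in FTbR2KO 1 to 4, and at 14.6, 13.2, 22.6 and 12.8 in TbR2fl/fl 5 to 8, overlapping through TbR2fl/fl 7. The mean for Lum was 18.7 ± 4.32 in libraries labelled FTbR2KO and 13.9 ± 2.74 in TbR2fl/fl libraries, and for Ogn it was 11.7 ± 1.75 in libraries labelled FTbR2KO and 8.34 ± 2.16 in TbR2fl/fl libraries (SD, n = 4 each). For both genes, 2 of the 4 libraries labelled FTbR2KO lay above every control, and the ranges overlapped. Of the other genes, the ratio lay above every control in 3 of the 4 libraries labelled FTbR2KO for Omd, in 2 for Prelp, in 1 for Aspn, in 1 for Podn and in 0 for Fmod, which averaged 3.04 ± 0.165 in libraries labelled FTbR2KO and 2.63 ± 0.71 in TbR2fl/fl libraries. These ratios were chosen after the levels of Col1a1 were known and were not tested.

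**Figure D5:**
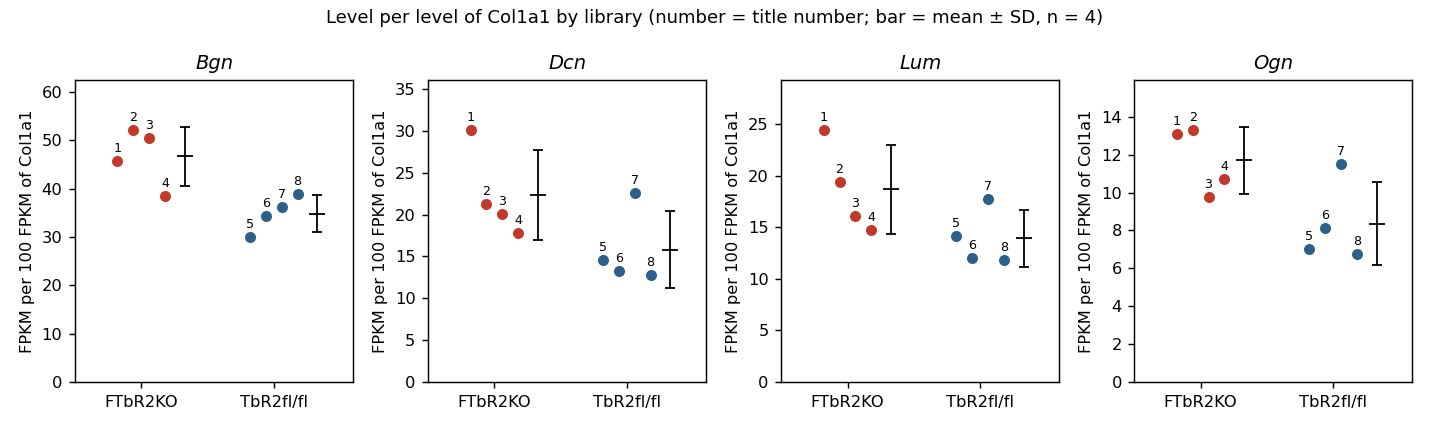
Levels of Bgn, Dcn, Lum and Ogn in FPKM per 100 FPKM of Col1a1 in the same library, axes from 0, libraries labelled FTbR2KO in red on the left and TbR2fl/fl in blue on the right, with mean ± SD bars (n = 4). Bgn averages 46.7 ± 6.09 in libraries labelled FTbR2KO and 34.8 ± 3.78 in TbR2fl/fl libraries, with FTbR2KO 4 inside the control range.

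Most other members of the family were scarce, the exceptions being Ecm2 and Tsku. Of the 9 further SLRP genes, 5 passed the filter on low values, and 0 of the 5 passed the adjusted threshold by limma or voom or had an unadjusted p under 0.05 in either. Epyc measured 6.25, 2.88, 4.62 and 2.68 FPKM in FTbR2KO 1 to 4, and 2.51, 2.40, 3.55 and 1.32 FPKM in TbR2fl/fl 5 to 8, each library labelled FTbR2KO above 3 of the 4 controls as for Omd (log2 fold change 0.55, SE 0.25, limma adjusted p = 0.590). For Epyc too, the libraries with Xist near 0, FTbR2KO 4 and TbR2fl/fl 8, were the lowest of their groups. Chad, a class IV SLRP of cartilage, stood at -0.22 on the log2 scale (SE 0.12) and Chadl at -0.11 (SE 0.10). Ecm2 was the most abundant of the relatives at 40.0 ± 4.60 FPKM in libraries labelled FTbR2KO and 38.6 ± 8.32 FPKM in TbR2fl/fl libraries (SD, n = 4 each). Tsku (tsukushi) measured 19.8 ± 3.14 FPKM in libraries labelled FTbR2KO and 22.1 ± 3.51 FPKM in TbR2fl/fl libraries, near the level of Podn.

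No gene for building the sulfated chains passed the threshold. Of the 20 tested of 23 genes for chondroitin and dermatan sulfate synthesis, 0 passed in either direction and 0 had an unadjusted p under 0.05 by limma or voom, with a median log2 fold change of -0.01. The smallest p-values belonged to Xylt2, which adds the first xylose to the core protein (log2 fold change -0.20, SE 0.09), to Chpf, a chain polymerising factor (-0.16, SE 0.11), and to B3gat3, which completes the linker (-0.16, SE 0.11). Among genes of keratan sulfate synthesis and sulfation, 0 of 10 tested passed and 1 had an unadjusted p under 0.05 by limma (0 by voom), against 8.61% and 8.28% of all tested genes. Of the 10, 8 lay below 0, with a median of -0.07, where 48.8% of all tested genes lay above 0. The gene with an unadjusted p under 0.05 was B4galt1, which adds galactose to the growing chain and to other glycans. It measured 70.1, 68.2, 67.9 and 70.1 FPKM in FTbR2KO 1 to 4, and 87.3, 82.9, 75.5 and 77.4 FPKM in TbR2fl/fl 5 to 8. The groups did not overlap, as for 4.41% of all tested genes (log2 fold change -0.22, SE 0.08, limma adjusted p = 0.571). Tpst2, which sulfates tyrosines, stood at -0.18 on the log2 scale (SE 0.12) and Slc35b2, which carries the sulfate donor into the Golgi, at -0.10 (SE 0.09).

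Proteases that cut SLRP cores, listed with the procollagen protease enhancers Pcolce and Pcolce2, likewise held no gene past the threshold. Of 10 tested of 15, 0 passed by limma or voom (1 and 3 at an unadjusted p under 0.05, against 8.61% and 8.28% of all tested genes), and the median log2 fold change was 0.11. Adamts4, a protease that cuts proteoglycans including biglycan, measured 32.5, 45.1, 44.0 and 35.7 FPKM in FTbR2KO 1 to 4, and 23.6, 32.6, 31.3 and 24.5 FPKM in TbR2fl/fl 5 to 8. In 3 of the 4 libraries labelled FTbR2KO it exceeded every control (log2 fold change 0.48, SE 0.15, limma adjusted p = 0.571). Its relatives Adamts1 and Adamts5 had log2 fold changes of 0.36 (SE 0.17) and 0.24 (SE 0.11). Bmp1, the protease that removes the biglycan propeptide, measured 91.4 ± 5.22 FPKM in libraries labelled FTbR2KO and 101 ± 8.07 FPKM in TbR2fl/fl libraries (SD, n = 4 each; limma adjusted p = 0.682).

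Ligands and receptors bound by SLRPs gave 0 of 13 tested genes past the threshold by limma or voom, with 2 at an unadjusted p under 0.05 in each, against 8.61% of all tested genes by limma and 8.28% by voom, and a median log2 fold change of 0.01. Tgfb2, one of the TGF-β ligands held by SLRPs, measured 15.7, 19.4, 15.9 and 11 FPKM in FTbR2KO 1 to 4, and 8.97, 9.74, 11.2 and 11.1 FPKM in TbR2fl/fl 5 to 8 (log2 fold change 0.53, SE 0.15, limma adjusted p = 0.571). FTbR2KO 4 lay among the controls. Tgfb1 stood at -0.13 on the log2 scale (SE 0.28) and Tgfb3 at -0.11 (SE 0.12). Egfr, a receptor that decorin binds, measured 14.8 ± 0.623 FPKM in libraries labelled FTbR2KO and 12.7 ± 1.31 FPKM in TbR2fl/fl libraries (SD, n = 4 each, limma adjusted p = 0.571). It was higher in 4 of 4, where 4.41% of all tested genes separated the groups completely in either direction. Cd14, a co-receptor for biglycan, had a log2 fold change of -0.31 (SE 0.16).

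Among 17 tested of 22 other matrix and cell-surface proteoglycans, 0 passed by limma or voom (0 and 4 at an unadjusted p under 0.05, against 8.61% and 8.28% of all tested genes), with 13 above 0 where 48.8% of all tested genes were, and a median log2 fold change of 0.13. Vcan, the large hyaluronan-binding proteoglycan of provisional matrix, measured 58.0 ± 12.7 FPKM in libraries labelled FTbR2KO and 42.4 ± 11.5 FPKM in TbR2fl/fl libraries (SD, n = 4 each; log2 fold change 0.45, SE 0.21, limma adjusted p = 0.591). Sdc1, a cell-surface heparan sulfate proteoglycan, had a log2 fold change of -0.23 (SE 0.10) with all 4 libraries labelled FTbR2KO below the controls, and the glypican gene Gpc6 one of 0.21 (SE 0.10).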

How the data were processed

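The authors deposited gene-level FPKM for 54532 genes with names, coordinates and lengths, 1 column per library. Per the submitters' processing notes, the tools include HTSeq 0.6.1, TopHat2 2.0, CASAVA and Cufflinks 2.1.1; GRCm38.p6 and mm10 appear as builds, all with no role or order. Libraries were poly(A)-selected NEBNext Ultra preparations, per the labels' protocols. Groups follow the sample titles. In every library FPKM multiplied by length was a whole multiple of 1 step (100% of nonzero values within 0.01 of a whole number), which gave the reads behind each value. Their number sets the counting precision, and they entered only the voom alternative.

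The 11667 genes that reached 1 FPKM in 4 or more of the 8 libraries were tested with limma 3.58.1 in R 4.3.3 on log2(FPKM + 1), with trended empirical Bayes variance, no covariate, Benjamini-Hochberg adjustment over all tested genes and an adjusted p of 0.05, two-sided. The pseudocount understates changes of low genes. The test was checked on simulated data. An exact permutation test, two-sided (SciPy 1.17.1), was run gene by gene. Alternatives were a pseudocount of 0.1, no filter, a minimum of 5 FPKM, median-of-ratios and quantile scaling, TPM, array weights, voom, and left-out libraries. Promoter sequences are from RefSeq (GRCm38.p6) and exons from GENCODE vM21 (GRCm38). Named besides the 9 genes are the 3 genes of smallest p in each related list, the nearest genes in pattern, and genes fixed by name. Kera, Optc and Ecm2, as cluster neighbours, were named after their values were seen. So were Cnmd, Xist, Postn, Comp, Cilp2, Tsku, Pcolce, Pcolce2, Lep, Cenpp, Scp2, Gpt2, Prm1, Gsn and Pdgfra. One gene near the mean profile is not reported here. The members and lists were chosen with earlier results of these data known.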

Additional observations from a re-analysis of the deposited data

Results flagged for a closer look

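Omd in TbR2fl/fl 7 stood apart from the other controls at 8.06 FPKM, where the next highest control had 5.10 FPKM. The gap was 0.831 of the range of the group, just past Dixon's critical value for 4 samples. It was the only flag among the 18 groups of 4 examined (9 genes in 2 genotypes), and chance flags about 1 in 20 groups. Without TbR2fl/fl 7 the log2 fold change of Omd was 0.61, with a limma adjusted p of 0.694. In the same library 6 of the 9 SLRP genes had their highest level.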

How the results depend on the processing

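None of the 9 SLRP genes passed the adjusted threshold under any of the 17 alternatives, with limma adjusted p from 0.189 (Omd with array weights) to 0.996. Dropping the filter or raising it to 5 FPKM cannot move a gene's own fold change. Median-of-ratios scaling left all 9 fold changes the same as well. Of the 153 recomputed fold changes, these included, 139 kept their sign. Dcn, Bgn, Omd and Ogn kept theirs in all 17, Omd between 0.26 and 0.66; on leaving out 1 library Dcn ran over 0.06 to 0.31, Bgn over 0.01 to 0.13 and Ogn over 0.06 to 0.29. The sign turned on leaving out 1 library for Aspn (-0.06 to 0.16), Lum (-0.02 to 0.16), Fmod (-0.22 to 0.02), Prelp (-0.07 to 0.13) and Podn (-0.11 to 0.07). It also turned for Prelp without FTbR2KO 1 and TbR2fl/fl 5 (-0.03), for Fmod with array weights (0.02), and for Fmod (0.06) and Podn (0.13) as TPM. TPM moved the median of all tested genes by 0.15, and relative to that Fmod lay at -0.09 and Podn at -0.02. The cause of the other turns was not tested. The count of genes past the threshold, 2 in the comparison as reported, was 1 with a minimum of 5 FPKM, 1 to 6 on leaving out 1 library (6 without FTbR2KO 4, 1 without FTbR2KO 1, 2 or 3) and 0 without FTbR2KO 1 and TbR2fl/fl 5 (1197 at an unadjusted p under 0.05). No paired analysis was run, because the groups share no replicate number. The titles also carry codes that the labels do not explain, and these were not used to pair libraries. The codes of FTbR2KO 1 and TbR2fl/fl 5, which stood apart on the first principal component, lie close together. So do the codes of the 2 libraries with Xist near 0. Not every library has a clear partner by code, and whether close codes mark a shared origin was not tested. Depth limits Omd most, at 297 to 399 reads per library.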
